A study of Mus musculus with 2 samples.

Results

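The peaks described here are the places where PPARγ was found at promoters in TH2 cells of the mouse, T helper cells that direct immunity to worms and allergens. They were chosen by position alone. A peak belonged to the set if its centre lay between 1000 bp upstream and 100 bp downstream of any transcription start site of the mouse annotation, coding or noncoding. This took 204 of the 2537 peaks in the deposited list (8.04%, exact 95% binomial interval 7.01 to 9.17), whereas promoters so defined make up 2.47% of the chromosomes. In the experiment, naive CD4 T cells of C57BL/6J mice were polarised towards TH2 in culture and given a retrovirus for TY1-tagged PPARγ on days 1 and 2. On day 4 their chromatin was precipitated with an antibody to the tag, and an input library without antibody from cells of the same kind served as background. The map therefore shows the introduced receptor, made from a viral vector, and it rests on 1 ChIP library without a replicate. No promoter has a strength in the file, only a position, and every p-value below takes peaks as its units and describes this list, not the spread between cultures.

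PPARγ is a nuclear receptor that is switched on by fatty acids and related ligands and binds DNA as a pair with the retinoid X receptor. The pair recognises DR1, a direct repeat of the core AGGTCA separated by a single base, and its known targets include genes of fatty acid uptake, storage and oxidation. Many mammalian promoters lie in CpG islands, stretches of GC-rich sequence that have kept their CpG dinucleotides because they are largely unmethylated. Such islands often serve a divergent pair, 2 genes read in opposite directions from neighbouring start sites.

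The promoter peaks with the best DR1 matches are shown first, since they carry the sequence that the receptor is known to bind. DR1 was searched as AGGTCA, any single base and again AGGTCA, on both strands within 100 bp of each peak centre. Capitals mark the 13 bases of the match, read in the direction of the repeat, with 6 genomic bases on each side (mm10). Exact matches occurred at Suv39h1, which encodes a histone H3 lysine 9 methyltransferase, and Zmiz2, a transcriptional coregulator of the PIAS family. The other 9 have 1 mismatch in the 12 fixed bases. 4930579G24Rik and 3110045C21Rik are the divergent partners of Etfdh and Hsd17b7. Each sequence is given with the gene whose promoter holds the peak.
Suv39h1, chrX:8075452-8075476, minus strand: atatgtAGGTCAAAGGTCAatggta
Zmiz2, chr11:6388304-6388328, plus strand: ggatgcAGGTCAAAGGTCAgaaggg
4930579G24Rik, chr3:79628375-79628399, minus strand: taaactAGGGCAAAGGTCAatgctg
Pan2, chr10:128303506-128303530, minus strand: aggattAGGGCAAAGGTCAagacgt
3110045C21Rik, chr1:169968610-169968634, plus strand: ataagtAGGTCAAGGGTCAaatggg
Ggnbp2, chr11:84871175-84871199, minus strand: aaaacaAGGTCAAAGGTCTctgcag
Cdc34, chr10:79681543-79681567, plus strand: agggtgTGGTCAAAGGTCAgtctga
Psen2, chr1:180253783-180253807, plus strand: ggatacAGGTCAGAGGTGActgagc
Tuba1c, chr15:99028959-99028983, plus strand: gtgcatAGGCCAGAGGTCAatatgt
Gm19705, chr1:136683067-136683091, plus strand: gtttgcAGGTCAAAGGTGAaaatgc
Nwd1, chr8:72646360-72646384, minus strand: ggattcAGGTCAGAGGTTAaaagcg

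At the promoters of fatty acid oxidation the matches were weaker, with 2 mismatches each. They are shown because these genes are the best known class of PPAR targets. The genes are Slc25a20 (the carnitine and acylcarnitine carrier), Acot2 (a mitochondrial acyl-CoA thioesterase) and Etfa (a subunit of the electron transfer flavoprotein). Capitals again mark the match.
Slc25a20, chr9:108662136-108662160, plus strand: gaatgtAGGTGAAAGGTCGgcggag
Acot2, chr12:83987381-83987405, plus strand: gaatgtAGGTAAAGGGTCAcacagc
Etfa, chr9:55512302-55512326, plus strand: gggagtAGGGCAAAGGTAAgggtgt

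Whole peaks of 173 bp show how differently these sites are set. The next sequences run in the direction of the gene, and capitals mark DR1 and, at Ggnbp2, also the AP-1 site near the left end. The Suv39h1 peak holds no CpG in its central 200 bp and has a GC content of 34%, whereas the Ggnbp2 peak has a GC content of 59% and an observed/expected CpG ratio of 0.351.
Suv39h1, chrX:8075388-8075560: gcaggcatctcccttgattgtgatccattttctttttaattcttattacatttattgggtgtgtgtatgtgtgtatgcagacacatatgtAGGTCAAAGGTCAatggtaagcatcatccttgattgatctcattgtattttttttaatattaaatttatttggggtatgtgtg
Ggnbp2, chr11:84871107-84871279: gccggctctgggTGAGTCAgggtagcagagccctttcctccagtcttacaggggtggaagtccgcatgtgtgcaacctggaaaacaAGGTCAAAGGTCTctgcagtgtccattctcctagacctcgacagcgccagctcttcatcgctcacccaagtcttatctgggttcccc

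The first question was where within the promoter the peaks sat. Offsets are given from the start site whose promoter holds the peak, the closest where several do; at divergent pairs the partner's start can be closer. The median offset was −371 bp (quartiles −678 and −146; a minus sign means upstream). By comparison, 336877 windows of 200 bp that sample all promoter sequence evenly had a median of −435 bp. Peak centres lay within 100 bp of a start site in 39 cases (19.1%, exact 95% interval 14.0 to 25.2), against 19.8% of the windows. The region from 200 bp upstream to 100 bp downstream held 70 peaks (34.3%, 27.8 to 41.3) against 28.9% of the windows, and 80 peaks (39.2%, 32.5 to 46.3) lay more than 500 bp upstream against 44.1%. By these 3 shares the peaks were spread much as promoter sequence itself, and the interval of each includes the share of the windows. Single 100 bp bins departed further. The bin from −200 to −101 bp held the most peaks, above the 18.4 that such a spread gives. That from −900 to −801 bp held the fewest, below 17.9. At the limits of the rule, the outermost members inside were 5430437J10Rik at −990 bp and Hcfc1r1 at 100 bp. The nearest peaks left outside were those at 3 noncoding genes at −1017 bp and at Gm8251 at 104 bp, and Plin2, named after its value was seen, had a peak at −1036 bp; it encodes a coat protein of lipid droplets.

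**Figure D1:**
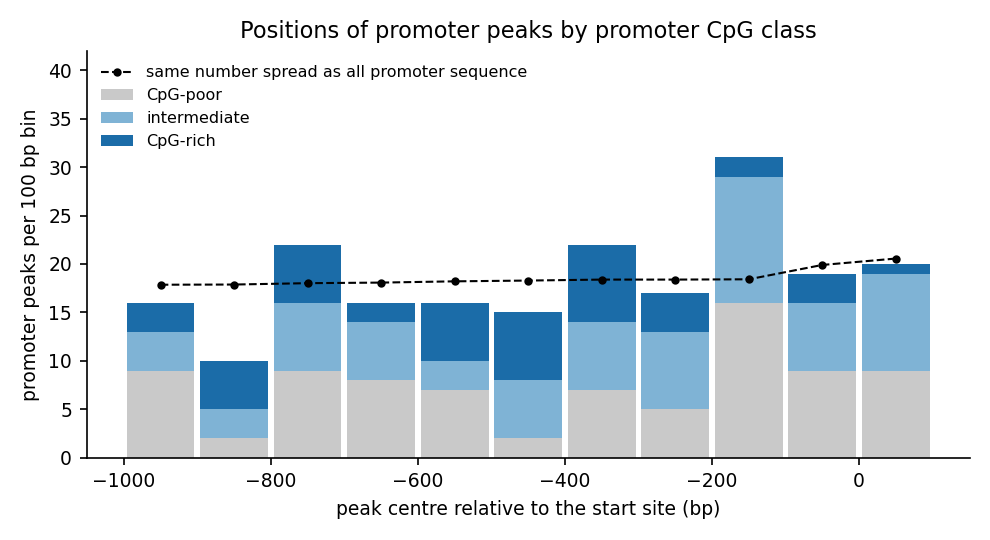
Number of promoter peaks in each 100 bp bin of position relative to the start site whose promoter holds the peak (bp, 0 is the start site), stacked by CpG class of the promoter; the dashed line gives the numbers for 204 peaks spread as all promoter sequence. CpG-rich promoters (dark) had 6 of their 47 peaks from 200 bp upstream to 100 bp downstream of the start site.

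The 10 peaks nearest to a start site belonged to genes of varied roles. Slc25a20 and the noncoding E230032D23Rik had a centre 1 bp upstream and Arl6ip1, a protein of the endoplasmic reticulum, 1 bp downstream. Ap5s1, an adaptor subunit of vesicle traffic, and Rtcb, the tRNA splicing ligase, followed at 3 bp. Mlst8, a subunit of both mTOR complexes, had its peak 4 bp downstream of the start site, and Mtor, the kinase itself, had one 401 bp upstream. Fbxo27 (an F-box protein, −5 bp), the snRNA gene Gm22513 (7 bp), the chaperone gene Dnajb6 (10 bp) and the lincRNA gene Gm44659 (−13 bp) completed the group. In all, 19 of the 204 centres lay in annotated untranslated sequence, 17 in other exon sequence, 68 in introns and 100 between genes.

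The second question concerned CpG content. A promoter was called CpG-rich when any 500 bp window from 1000 bp upstream to 100 bp downstream had an observed/expected CpG ratio over 0.75 and a GC content over 55%, CpG-poor when no window passed a ratio of 0.48, and intermediate otherwise. Of the 204 peaks, 47 were at CpG-rich promoters (23%, exact 95% interval 17.4 to 29.4) against 12.8% of all promoter sequence. Intermediate promoters held 74 peaks (36.3%, 29.7 to 43.3) against 20.6%, and CpG-poor promoters 83 (40.7%, 33.9 to 47.8) against 66.6%. CpG-poor promoters were the most frequent class under these limits. With a ratio over 0.6 and a GC content over 50% the CpG-rich share was 44.6%, above the CpG-poor share. The share of all promoter sequence under these looser limits is not given here, so the 44.6% cannot be set against it. With the 200 bp around the centre classed instead the CpG-rich share was 14.7%, against 10.1% of promoter windows. Among the named genes, Etfa, Etfb, Dgat1, Klf11, Kdm2b and Mtor had CpG-rich promoters, Slc25a20, Acot2, Coq3 and Mlst8 intermediate ones, and Ccr8, Tnfrsf18, Ebi3, Casp8 and Tmem173 CpG-poor ones.

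Within CpG-rich promoters the peaks lay away from the start site. Only 6 of the 47 (12.8%, 4.83 to 25.7) were between 200 bp upstream and 100 bp downstream, against 32.4% of windows in CpG-rich promoters, and their median offset was −494 bp against −408 bp. At intermediate promoters the same region held 30 of 74 peaks (40.5%, 29.3 to 52.6; windows 29.0%), and at CpG-poor promoters 34 of 83 (41.0%, 30.3 to 52.3; windows 28.1%). The sequence under the peaks followed this. The 200 bp windows at CpG-rich promoters had a median observed/expected CpG ratio of 0.487 (quartiles 0.354 and 0.637) against 0.684 for all windows of that class, and a median GC content of 47.5% against 57.5%. At intermediate promoters the median ratio was 0.489 against 0.385, and at CpG-poor promoters 0.193 against 0.146. Part of the gap in CpG-rich promoters goes with position. Peaks more than 500 bp upstream had a ratio of 0.403 against 0.423 for windows there, and those 200 to 500 bp upstream 0.619 against 0.702. The 6 peaks next to the start site had 0.672 against 0.899.

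**Figure D2:**
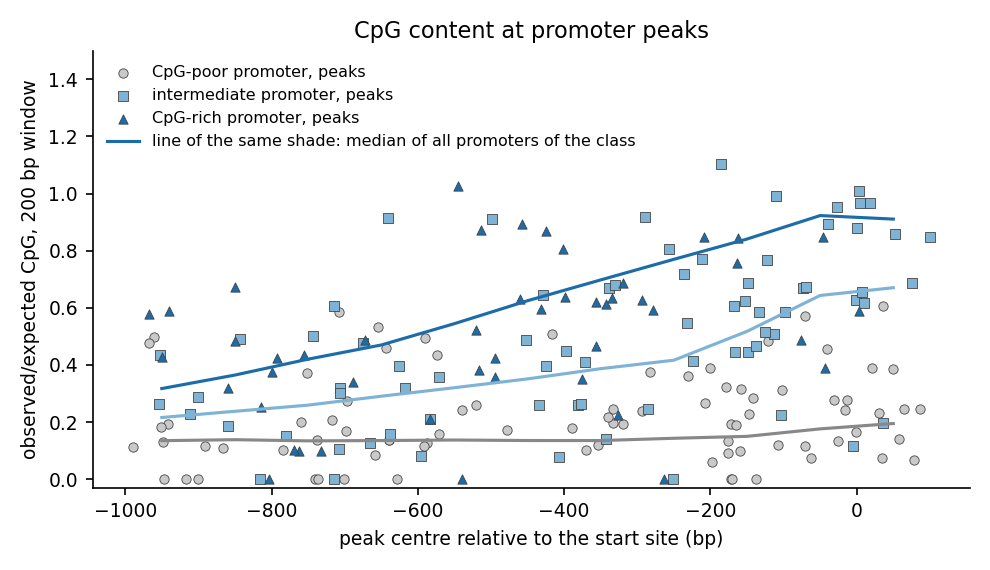
Observed/expected CpG ratio of the 200 bp around each promoter peak (vertical axis) by the position of its centre relative to the start site (horizontal axis, bp); marks show peaks by CpG class and lines the medians of all promoter windows of each class in 100 bp bins. Peaks at CpG-rich promoters (triangles) are few near the start site, where the line for their class is highest.

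Peaks at a pair of promoters of the CpG-rich class, Mtor and Cept1, differ widely in CpG and are shown for that contrast, although Mtor is not the highest of the class. Capitals mark each CpG in the sequences, which run in the direction of the gene. The Mtor peak holds 9 CpG dinucleotides (ratio 0.806 in 200 bp). The peak assigned to Cept1, a phosphotransferase of phospholipid synthesis, holds 0, and lies 477 bp inside Dram2, the divergent neighbour.
Mtor, chr4:148448124-148448296: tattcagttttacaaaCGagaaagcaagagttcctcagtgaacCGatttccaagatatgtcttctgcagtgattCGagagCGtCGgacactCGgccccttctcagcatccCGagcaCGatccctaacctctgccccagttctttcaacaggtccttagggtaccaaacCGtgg
Cept1, chr3:106548255-106548427: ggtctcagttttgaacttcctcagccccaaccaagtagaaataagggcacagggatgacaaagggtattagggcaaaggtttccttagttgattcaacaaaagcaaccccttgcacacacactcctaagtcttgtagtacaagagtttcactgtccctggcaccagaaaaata

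Compared with the 2333 peaks outside promoters, the promoter peaks were richer in CpG but seldom island-like. Their median ratio was 0.354 (quartiles 0.159 and 0.588) against 0.160 (0.0766 and 0.286), and their median GC content 47.2% against 43.0%. A ratio over 0.6 with GC content over 50% in the 200 bp around the centre was found in 30 promoter peaks (14.7%, exact 95% interval 10.1 to 20.3), in 10.1% of promoter windows and in 9 other peaks (0.386%, 0.177 to 0.731). Repeat-masked sequence held 20 promoter peak centres (9.80%, 6.09 to 14.7), 25.8% of promoter windows and 390 other peaks (16.7%).

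The third question was whether the peaks lay at bidirectional promoters. A start site counted as divergent when another gene started on the opposite strand within 1000 bp upstream. This held for 25 peaks (12.3%, exact 95% interval 8.09 to 17.6) against 6.20% of promoter sequence, and for 17 (8.33%, 4.93 to 13) against 4.72% with a partner within 300 bp. Within CpG-rich promoters the share was 11 of 47 (23.4%, 12.3 to 38.0) against 27.8% of their windows. At intermediate promoters it was 11 of 74 (14.9%, 7.66 to 25) against 7.60%, and at CpG-poor promoters 3 of 83 (3.61%, 0.752 to 10.2) against 1.62%. The share in peaks was thus above that in windows at intermediate and CpG-poor promoters and below it at CpG-rich ones, where the interval includes the share of windows, as it does at CpG-poor ones. At least 1 of the genes was protein-coding in 24 of the 25 pairs, and both were in 10 (4.90% of the peaks, 2.37 to 8.83; promoter sequence 2.43%).

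Most of these peaks were not between the start sites. The centre lay between them in 6 of the 25, beyond the partner's start and so inside the partner's transcribed side in 17, and downstream of the peak's own start in 2. The median distance to the partner was 166 bp, and the promoter rule reaches 1000 bp upstream. Much of a divergent promoter thus lies beyond the partner's start. The matching shares of promoter windows are not given here, so these counts do not set the peaks apart. The closest coding pair was Hcfc1r1 and Thoc6 (an mRNA export factor), 22 bp apart, with a peak 100 bp into Hcfc1r1. Pex13 (part of the import machinery of peroxisomes) and Pus10 (a pseudouridine synthase) start 48 bp apart, and the peak lay 473 bp inside Pus10. Cep19 and Pigx (60 bp), Cept1 and Dram2 (62 bp) and Tmem209 and Ssmem1 (66 bp) had their peaks 733, 477 and 277 bp inside the partner. Myl4 and Cdc27 (a subunit of the anaphase-promoting complex) start 180 bp apart, with a peak 770 bp inside Cdc27. At 4930579G24Rik and Etfdh, 216 bp apart, the peak lay 490 bp inside Etfdh, which encodes the oxidoreductase that passes electrons from fatty acid oxidation to ubiquinone. A like arrangement with a noncoding partner was found at Hsd17b7, an enzyme of cholesterol synthesis. Its peak lay 594 bp inside the gene and was counted through the antisense gene 3110045C21Rik. Cln3 and Apobr (662 bp), P3h4 and Fkbp10 (861 bp) and Txndc12 and Btf3l4 (987 bp) were the widest coding pairs, and each had its peak between the start sites. DR1 occurred in 6 of the 25 divergent peaks (24%, 9.36 to 45.1) and in 40 of the 179 others (22.3%, 16.5 to 29.2).

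The fourth comparison set the motifs of promoter peaks against those of the other peaks. Of 26 motifs searched in the 200 bp around the centre, 1 differed (3.85%; Fisher's exact test, two-sided, Benjamini-Hochberg adjusted over the 26), and 8 had an unadjusted p under 0.05. For DR1 with up to 2 mismatches no difference from other peaks was called. It occurred in 46 of 204 promoter peaks (22.5%, exact 95% interval 17.0 to 28.9) and 456 of 2333 other peaks (19.5%, 18 to 21.2), a log2 odds ratio of 0.26 ± 0.25 (SE, 95% interval −0.24 to 0.76, exact adjusted p = 0.584). Promoter sequence at large held it in 2.52% of windows, so the share in promoter peaks was 8.96 times that background. With at most 1 mismatch it occurred in 11 promoter peaks (5.39%, 2.72 to 9.44), 6.52% of other peaks and 0.322% of promoter windows. A control with the core scrambled to GCAGAT occurred in 10 promoter peaks (4.90%, 2.37 to 8.83), 2.06% of other peaks and 1.63% of promoter windows. Its share in promoter peaks was thus itself 3.02 times that of promoter windows, with an interval above the window share. The 8.96 for DR1 is to be read beside that ratio.

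AP-1, the site TGACTCA of the FOS and JUN factors that T cell activation induces, was the motif that differed. It was found in 20 promoter peaks (9.80%, 6.09 to 14.7) and 433 other peaks (18.6%, 17.0 to 20.2), a log2 odds ratio of −1.07 ± 0.35 (SE, exact adjusted p = 0.0296). The share in promoter peaks was still above the 3.05% of promoter windows. Named protein-coding genes with an AP-1 site in their promoter peak were Dnajb6, Map3k2 (a kinase of the MAPK cascades), Ppp6r3 (a phosphatase subunit), Ggnbp2 and Tnfrsf18 (the costimulatory receptor GITR). Among noncoding genes named elsewhere, Gm8557, Gm24343, Gm11496, 5430437J10Rik and a peak of 5430425K12Rik had such a site. Traf1, an adaptor of TNF receptors with a peak 16 bp upstream of the start, Olr1, Snai3, Abhd2 and Tctex1d4 were added after their sites were seen. In 7 promoter peaks AP-1 stood beside DR1, among them those of Ggnbp2 and Tnfrsf18. In 4 alternatives the AP-1 call was lost, with the share still lower in promoter peaks. The log2 odds ratio was −1.41 with a 100 bp window (exact adjusted p = 0.0947), −0.61 among the peaks in the last 50% of the file's rows (0.766), −0.90 among windows that were not island-like (0.225) and −0.72 with every annotated transcript (0.0639).

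**Figure D3:**
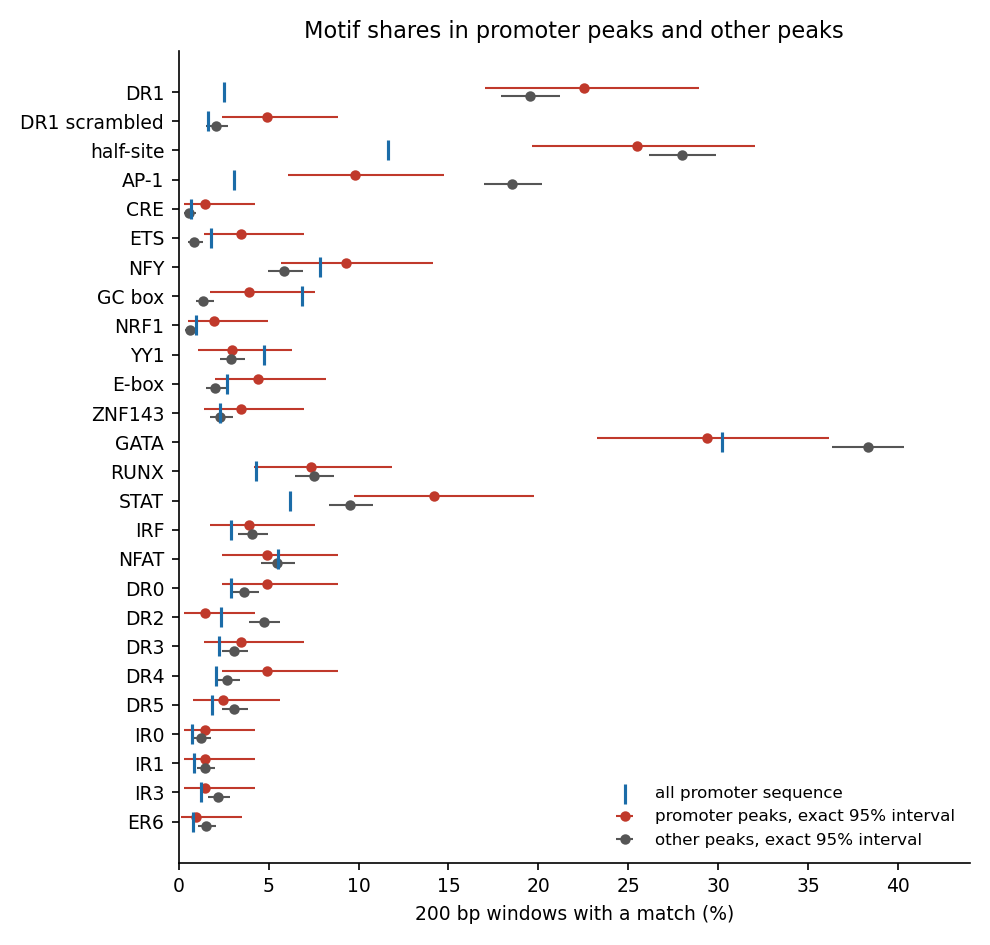
Percentage of 200 bp windows with a match (horizontal axis) for each of the 26 motifs, in promoter peaks (red, n = 204) and other peaks (grey, n = 2333) with exact 95% intervals, and in all promoter sequence (blue ticks). DR1 is at 22.5% and 19.5% in the peaks and AP-1 at 9.80% and 18.6%.

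Sites of general promoter factors were each found in under 10% of the promoter peaks in the 200 bp window. The ETS site CCGGAAG occurred in 7 promoter peaks (3.43%, 1.39 to 6.94), 0.857% of other peaks and 1.79% of promoter windows. Its log2 odds ratio against other peaks was 2.04 ± 0.64 (SE) with an exact adjusted p of 0.0563. The difference was called in 4 alternatives. In a 400 bp window the site was in 12.3% of promoter peaks and 1.84% of other peaks (exact adjusted p = 3.33e-10), and the adjusted p was 0.00573 for promoters from 500 bp upstream, 0.0155 for coding start sites and 0.0457 without repeat-masked centres. The 7 peaks of the 200 bp window were centred within 113 bp of a start site: Slc25a20, Dnajb6, Exosc4 (a subunit of the RNA exosome), Drg2, H2-D1, Gm20186 and Gm37947, the last 4 added after their sites were seen. Among the 70 peaks from 200 bp upstream to 100 bp downstream the share has an interval of 4.12 to 19.5%, against 3.67% of windows there. The GC box of SP factors (GGGCGGG or GGGGCGG) occurred in 8 promoter peaks (3.92%, 1.71 to 7.58), 1.37% of other peaks and 6.84% of promoter windows (exact adjusted p = 0.0828). At CpG-rich promoters it occurred in 1 of 47 peaks (2.13%, 0.0538 to 11.3) and in 26.7% of windows. This comparison is not matched for position, and peaks of that class lay farther from the start site than its windows. In windows of all classes the GC box was in 14.6% from 200 bp upstream to 100 bp downstream. More than 500 bp upstream it was in 2.76%. NFY boxes (9.31% of promoter peaks, 7.83% of windows), NRF1 (1.96%, 0.971%), YY1 (2.94%, 4.73%), the E-box CACGTG (4.41%, 2.68%), ZNF143 (3.43%, 2.28%) and CRE (1.47%, 0.704%) had intervals that include the share of promoter windows.

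Among sites of lymphoid factors, STAT (TTCNNNGAA) occurred in 29 promoter peaks (14.2%, 9.73 to 19.8), 9.52% of other peaks and 6.21% of promoter windows (exact adjusted p = 0.133 against other peaks). By class it was in 3 of 47 CpG-rich, 10 of 74 intermediate and 16 of 83 CpG-poor promoter peaks. The GATA site, that of the factor that defines TH2 cells, was in 60 promoter peaks (29.4%, 23.3 to 36.2), 38.3% of other peaks and 30.2% of promoter windows (exact adjusted p = 0.0828). RUNX (7.35%), IRF (3.92%) and NFAT (4.90%) were within 1 percentage point of their shares in other peaks, 7.50%, 4.07% and 5.49%. Other spacings and orientations of the AGGTCA core were each found in at most 4.90% of promoter peaks. DR0, which lacks the spacer, and DR4, the spacing of thyroid hormone and LXR receptors, were in 10 promoter peaks each (4.90%, 2.37 to 8.83). DR0 was in 3.64% of other peaks and 2.89% of promoter windows. DR4 was in 2.66% of other peaks (exact adjusted p = 0.179) and 2.05% of promoter windows, a share below its interval in promoter peaks. DR2 was in 3 promoter peaks (1.47%) against 4.72% of other peaks (exact adjusted p = 0.133). DR3 was in 7, DR5 in 5, the inverted repeats IR0, IR1 and IR3 in 3 each and the everted repeat ER6 in 2. The intervals of all these repeats except DR4 include the share of promoter windows.

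The next comparison asked whether DR1 differs with the CpG class of the promoter. It was found in 10 of 47 CpG-rich (21.3%, 10.7 to 35.7), 17 of 74 intermediate (23%, 14.0 to 34.2) and 19 of 83 CpG-poor promoter peaks (22.9%, 14.4 to 33.4). In windows of the same classes it was found in 1.77%, 2.32% and 2.72%. CpG-rich against other promoter peaks gave a log2 odds ratio of −0.14 ± 0.58 (SE, 95% interval −1.28 to 1.00), which leaves room for differences of 2 times in the odds in either direction. By Fisher's exact test, 0 of the 26 motifs differed between these groups (0%), and 1, DR0, had an unadjusted p under 0.05 (6 of 47 against 4 of 157, exact p = 0.0111, adjusted 0.289). By position, DR1 was in 10 of the 70 peaks next to the start site (14.3%, 7.07 to 24.7) and in 36 of the 134 farther upstream (26.9%, 19.6 to 35.2). This split was not tested.

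DR1 matches clustered at the centres of the promoter peaks. Within 50 bp of the centre there were 31 matches, or 1.52 per kb (Poisson 95% interval 1.03 to 2.16), falling to 0.735 per kb from 50 to 150 bp, 0.180 from 150 to 300 bp and 0.129 (0.0619 to 0.237) from 300 to 490 bp. The other peaks had 1.44 per kb (1.29 to 1.60) at the centre and 0.194 at 300 to 490 bp, and the scrambled repeat at most 0.245 per kb in any bin of promoter peaks. The median distance of the best match to the centre was 33.5 bp in the 46 promoter peaks and 30.0 bp in the 456 others. Of the 46, 39 had the match wholly within the 173 bp peak. The exact match at Zmiz2, 93 bp from the centre, lay just outside its peak, and that at Etfa lay mostly outside. The match read in the direction of the gene in 23 of 46, and 30 of the 46 peaks were in a protein-coding promoter. The base between the cores was A in 31 (67.4%, 52.0 to 80.5) and G in 8 (17.4%), and the base before the first core was T in 27 (58.7%, 43.2 to 73.0). In other peaks the spacer was A in 51.3% and G in 33.1%, and the base before was T in 45.6%.

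**Figure D4:**
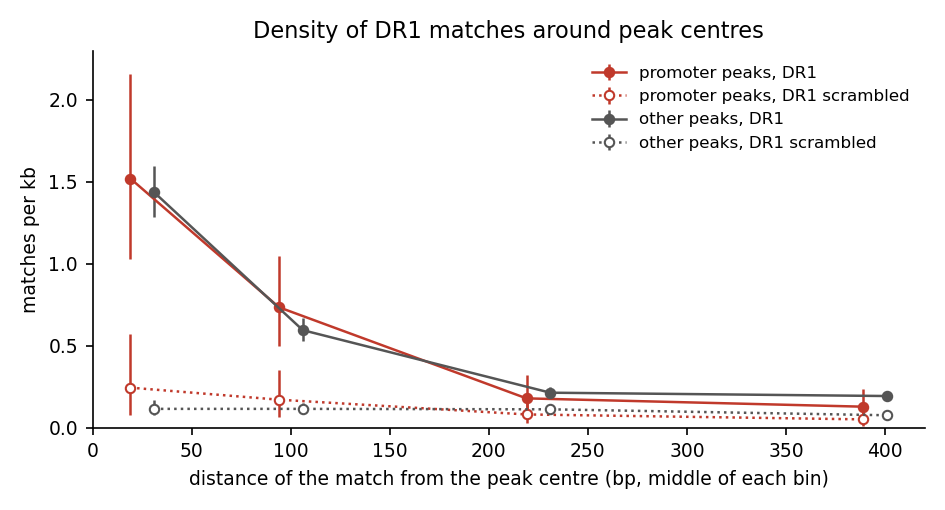
Matches per kb (vertical axis) by distance from the peak centre (horizontal axis, bp), for DR1 (filled) and its scrambled control (open) around promoter peaks (red) and other peaks (grey); bars are Poisson 95% intervals. Around promoter peaks DR1 falls from 1.52 to 0.129 per kb.

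Of the 46 promoter peaks with DR1, 2 had an exact match, 9 had 1 mismatch and 35 had 2. Apart from Suv39h1 and Zmiz2, the matches with 1 mismatch were at the coding genes Cdc34 (a ubiquitin-conjugating enzyme of the cell cycle), Pan2 (a poly(A) nuclease subunit), Psen2 (a presenilin of the gamma-secretase), Tuba1c (an alpha-tubulin), Ggnbp2, Nwd1 and 4930579G24Rik, and at the noncoding 3110045C21Rik and Gm19705. The matches with 2 mismatches nearest to a centre included those at Gm25558 (0 bp), Ildr1 (5 bp), Pigm and Gm24343 (6 bp each), Gm48781 (10 bp), Gstt2 and 4930412L05Rik (13 bp each), D17Wsu92e (16 bp) and Gm8557 (17 bp). Pigm encodes a mannosyltransferase of GPI anchors and Gstt2 a glutathione transferase. A single AGGTCA without DR1 was present in 25 promoter peaks (12.3%), and 121 (59.3%, 52.2 to 66.1) held none of DR1, AGGTCA and AP-1 in these letters.

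Finally, the genes were grouped by function. The 204 peaks fell in promoters of 218 genes, of which 140 were protein-coding (0.638% of 21938). The 35 lists, chosen with earlier results of these data known, held 51 of the 140. Their shares and their ranking are descriptive and were not tested. Mitochondrial fatty acid oxidation had the largest share, 7 of 53 genes (13.2%). In order of distance from the start site they were Slc25a20 (−1 bp), the thiolase Acaa2 (−123 bp), the isomerase Eci2 (−134 bp), Etfa (−162 bp), Mlycd (malonyl-CoA decarboxylase, −168 bp), Etfb (−278 bp) and Acot2 (−429 bp), the last beyond the 6 that the naming rule gives and added after its value was seen. Slc25a20, Etfa and Acot2 held DR1, and 0 of these 7 peaks held an AP-1 site. All 7 were at CpG-rich or intermediate promoters. Of all 204 promoter peaks, 46 held DR1 and 20 an AP-1 site, and 47 were at CpG-rich and 74 at intermediate promoters. With 7 peaks these counts do not set the group apart, and they were not tested.

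Further lists of lipid and cofactor metabolism also had shares above the 0.638% of all coding genes, on 1 to 3 genes each, and this was not tested. The peroxisome list had 2 of 50 (4%), among them Pex13 (−521 bp). Cofactor synthesis had 2 of 46 (4.35%), Coq3 (a methyltransferase of coenzyme Q synthesis, −27 bp) and Pank3 (pantothenate kinase of coenzyme A synthesis, −859 bp). The Coq3 peak had a neighbour 388 bp away. Lipid storage and synthesis had 3 of 98 (3.06%), Dgat1 (the last step of triglyceride synthesis, −343 bp), Cept1 (−539 bp) and Gpat4 (glycerol phosphate acyltransferase, −755 bp), 0 of them with DR1. Among 91 mitochondrial carriers and import factors, Slc25a20 had a promoter peak. The lists of electron transport and ATP synthase (0 of 101), the mitochondrial ribosome (0 of 93), the citrate cycle (0 of 34), glycolysis (0 of 37), cholesterol metabolism (0 of 54), cytosolic ribosomal proteins (0 of 86) and nuclear receptors (0 of 47) had none. At the share of all coding genes, lists of these sizes would hold at most about 1 gene, so these zeros do not set them apart.

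**Figure D5:**
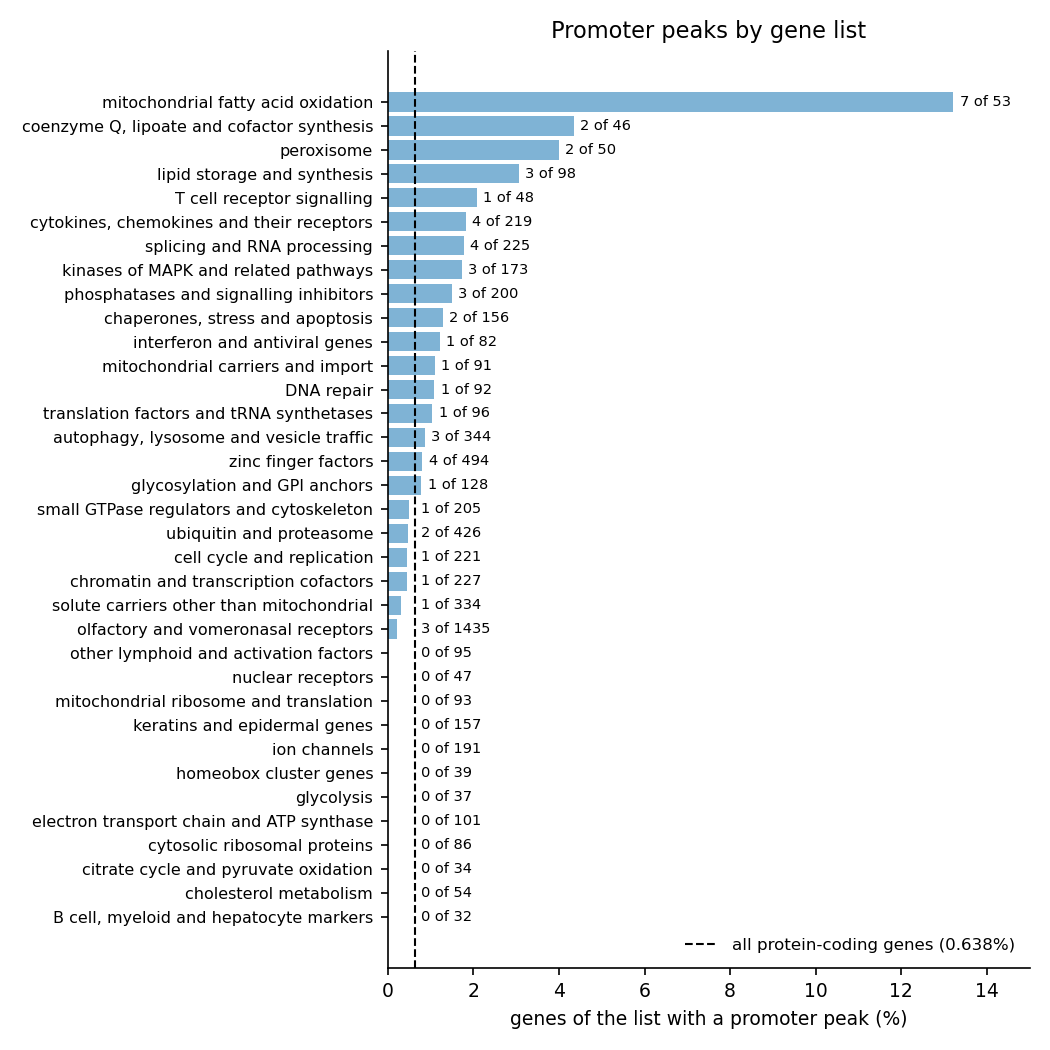
Percentage of the genes of each of 35 lists with a promoter peak (bars, horizontal axis), with the number of genes beside each bar; the dashed line is the share of all protein-coding genes, 0.638%. Mitochondrial fatty acid oxidation, 7 of 53, has the longest bar, and 12 lists have no gene with a promoter peak. The lists were chosen with earlier results of these data known.

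Immune genes with promoter peaks were few in number. Most of their lists had shares above the 0.638% of all coding genes, but on 1 to 4 genes each, and this was not tested. Cytokines, chemokines and their receptors had 4 of 219 (1.83%). They were Ebi3 (a subunit of IL-27 and IL-35, 78 bp), Tnfrsf26 (−327 bp), the TH2 chemokine receptor Ccr8 (−752 bp) and Tnfrsf18 (−901 bp). Interferon and antiviral genes had 1 of 82 (1.22%), Tmem173 (STING, −176 bp). These 5 were all at CpG-poor promoters, as were 83 of all 204 promoter peaks, and the peaks of Tnfrsf18 and Tnfrsf26 held DR1. T cell receptor signalling had 1 of 48 (2.08%). In a list of 48 or 82 genes a single gene already gives a share above that of all coding genes. These single genes therefore do not set their lists apart. The list of other lymphoid and activation factors had 0 of 95, which at the share of all coding genes does not set it apart. Among signalling genes, Map2k6 (−236 bp), Mtor and Map3k2 (−769 bp) were 3 of 173 kinases (1.73%). Ppp1r15b (a regulator of eIF2α phosphatase, −212 bp), Ptpn2 (a phosphatase of JAK and STAT signalling, −431 bp) and Ppp6r3 (−545 bp) were 3 of 200 phosphatases and inhibitors (1.5%). The apoptotic protease gene Casp8 (36 bp) and Dnajb6 were 2 of 156 genes of stress and apoptosis (1.28%).

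The shares in the lists given below ran from 0 to 1.78%. RNA processing had 4 of 225, Exosc4 (18 bp), Pan2 (52 bp), Lsm8 (−296 bp) and Srsf4 (−461 bp), and translation factors 1 of 96, Mars (methionyl-tRNA synthetase, −638 bp). Zinc finger factors had 4 of 494, Zscan26 (−73 bp), Zfp784 (−164 bp), Klf11 (−356 bp) and Zfp369 (−399 bp). Traffic had 3 of 344, Ap5s1, Sec24c (a coat protein of COPII vesicles, −331 bp, with DR1) and Tbc1d14 (−698 bp). Ubiquitin genes had 2 of 426, Fbxo27 and the deubiquitinase Cyld (−618 bp). The lists of DNA repair (Parp11, −179 bp), chromatin (Kdm2b, a CpG-binding demethylase, −940 bp) and the cell cycle (Cdc34, −688 bp, with DR1) each had a single gene. So did those of the cytoskeleton (Tuba1c, −953 bp, with DR1), GPI anchors (Pigm, −209 bp, with DR1) and other solute carriers (the zinc carrier Slc39a1, −407 bp). Receptors of olfactory and vomeronasal neurons had 3 of 1435 (0.209%): Olfr272 (−701 bp), Olfr530 (−949 bp) and Olfr263 (−967 bp), 0 of them with DR1. Ion channels (0 of 191), keratins and epidermal genes (0 of 157), homeobox clusters (0 of 39) and markers of B cells, myeloid cells and hepatocytes (0 of 32) were without a promoter peak. At the share of all coding genes, lists of these sizes could also hold none, so these zeros do not set them apart.

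About 1 peak in 3 had no coding promoter. The matching share of promoter sequence is not given here, so this count does not set the peaks apart. Of the 55413 annotated genes, 21938 are protein-coding. The assigned start site was that of a protein-coding gene for 132 peaks, a lincRNA for 18, an antisense RNA for 12, a processed pseudogene for 11 and other classes for the rest. No protein-coding promoter held the centres of 69 peaks (33.8%, 27.4 to 40.8). Those nearest to a start site were at Gm44659, Gm28286 (21 bp), Gm26740 (−26 bp), Gm11496 (−31 bp), Gm13686 (34 bp), 1110002L01Rik (−46 bp, inside Asxl2), AC106834.1 (−63 bp), Gm15947 (64 bp), Gm26510 (−71 bp, with DR1) and Gm37004 (−71 bp). The only gene with more than 1 promoter peak was the lincRNA gene 5430425K12Rik, with 2. In all, 65 of the 204 centres (31.9%, 25.5 to 38.7) lay in the body of a gene whose own promoter did not hold them, so these can also be read as intronic or exonic peaks of that gene. Examples added after their values were seen are Kdm6bos inside Kdm6b and Gm37760 inside Casp8. The assigned start site was within 100 bp of the outermost start of its gene for 170 peaks (83.3%) and over 1000 bp from it for 24.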

How the data were processed

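The deposited file lists peak positions of 1 ChIP library (10229438 tags, per the file headers) called against 1 input library. Reads were aligned to mm10 with Bowtie2 and peaks called with HOMER, per the submitters' processing notes; their versions are not given in the sources used here. Peaks needed 8 tags, a false discovery rate of 0.001, 4 times the input and the surrounding 10000 bp, and 54617 tags lay in peaks, per the file headers. The score column of the deposited file is 1 in every row, so no depth or strength of a single peak is known and each peak counts once.

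Start sites came from the GENCODE vM21 basic set (80996 transcripts, 55413 genes) and sequence from GRCm38, the assembly of mm10. Promoter sequence was sampled by 200 bp windows centred every 200 bp of the genome. Motifs were counted on both strands. The NFY box was searched as CCAAT followed by C or G and by A or G. The NRF1 site was GCGCATG and the YY1 site AAGATGG. The letters for ZNF143 were ACTACAA and those for cyclic AMP response elements (CRE) were TGACGTC. The GATA site was GATA after A or T and before A or G. The RUNX site was TGTGGTT and the NFAT site TGGAAAA. The IRF site was a pair of GAAA with 2 bases between. Direct (DR0, DR2 to DR5), inverted (IR) and everted (ER) repeats of AGGTCA allowed 2 mismatches, as DR1 did, and their letters overlap with one another and with the single core. Shares have exact (Clopper-Pearson) 95% intervals, for counting error alone. The naming rule gave up to 6 genes of each list, all genes with DR1 at up to 1 mismatch, the 10 peaks with DR1 at 2 mismatches nearest a centre, the 10 nearest a start site, genes with 2 peaks, and up to 10 coding pairs and noncoding genes; names outside it are marked in the text. The members, lists, motifs and rules were chosen with earlier results of these data known. The motif scan was tested on simulated data. Python 3.11.15, numpy 2.4.6, scipy 1.17.1 and matplotlib 3.10.9 were used. Some genes that the rule would name are not reported here.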

Additional observations from a re-analysis of the deposited data

How the results depend on the processing

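No paired analysis was possible because there is 1 ChIP library, and no replicate could be left out. The number of promoter peaks was 124 from 500 bp upstream to 100 bp downstream, 324 from 2000 bp upstream to 500 bp downstream, 135 with start sites of protein-coding genes only and 101 in the first 50% of the file's rows, and the protein-coding genes numbered 87 and 224 with the narrower and wider promoter. The count was 178 with 1 start site a gene, 219 with any overlap and 256 with all annotated transcripts, a setting chosen after seeing the data. With at most 1 mismatch the DR1 log2 odds ratio of promoter against other peaks was −0.29 (exact adjusted p = 1), and that of CpG-rich against other promoter peaks 0.34, as it was 0.26 in a 100 bp window (exact adjusted p = 1 for both); the cause was not tested. The other alternatives kept both DR1 directions and left both without a call. The CpG-rich share was 44.6% with a ratio over 0.6 and GC over 50%, for which no share of promoter sequence is given here. It was 14.7% when the 200 bp around the centre were classed instead. The bidirectional share was 4.90% with both genes protein-coding. The adjusted p of AP-1 ranged from 7.48e-06 (400 bp window) to 0.766, always with the lower share in promoter peaks. ETS sites passed the threshold in 4 alternatives, among them the 400 bp window (Fisher's exact test, adjusted p = 3.33e-10). They missed it in the others, among them windows that were not island-like (0.553), with the higher share at promoters throughout. The file orders peaks by no stated measure, and peak strength and differences between cultures were not measured here.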
